A study of Mus musculus with 4 samples.

Results

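The genes described here are 10 that serve peptide loading of MHC class I molecules and the immunoproteasome: Tap1, Tap2, Tapbp, Psmb8, Psmb9, Psmb10, Erap1, Nlrc5, Pdia3 and Calr. They were chosen by symbol, and all 10 were found among the 31017 gene symbols of the count tables. The cells were bone marrow monocytes of wild-type C57BL/6 mice, isolated by FACS and profiled by bulk RNA sequencing, with 2 libraries of 18 months of age (aged) and 2 of 3 months (young). Both groups carry the label atherosclerosis as their disease, while the sources used here give neither the gates of the sort nor the state of any plaques, nor whether a group's libraries are separate animals. The p-values therefore rest on the spread among the libraries, and that spread may be technical alone.

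MHC class I molecules show peptides from the cell's own proteins to cytotoxic T cells. In this pathway the proteasome cuts proteins in the cytosol, the TAP transporter carries the peptides into the endoplasmic reticulum, aminopeptidases there trim them, and a loading complex of tapasin, calreticulin and ERp57 holds the class I heavy chain until a peptide fits. Interferon-gamma induces many of these genes through factors that include IRF1 and the transactivator NLRC5, and it exchanges the constitutive catalytic subunits of the proteasome for the inducible ones of the immunoproteasome. Haematopoietic cells such as monocytes carry immunoproteasome also at rest.

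Of the 10 genes, 1 rose and 1 fell with age, where the test across 12035 genes called 5.77% in either direction (2.87% higher and 2.89% lower in aged monocytes). Tap2, a chain of the peptide transporter, rose by 1.27-fold, and Nlrc5, the class I transactivator, fell by 0.70 on the log2 scale. The other 8 did not pass, and Erap1, the trimming aminopeptidase, came closest (log2 change -0.24 ± 0.072, edgeR adjusted p = 0.0775). The median log2 change of the 10 was -0.024 and that of all tested genes -0.0044. The libraries of the groups did not overlap for 7 of the 10 genes, 3 higher and 4 lower in aged monocytes, against 51.6% of all tested genes (25.9% higher and 25.7% lower). In bulk RNA, fewer cells of a type and less RNA per cell cannot be told apart. Values are counts scaled to the library size (CPM) with SD, log2 changes carry standard errors, n is 2 libraries per group, and a change is called at a Benjamini-Hochberg adjusted p below 0.05 in edgeR's quasi-likelihood test.

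**Figure D1:**
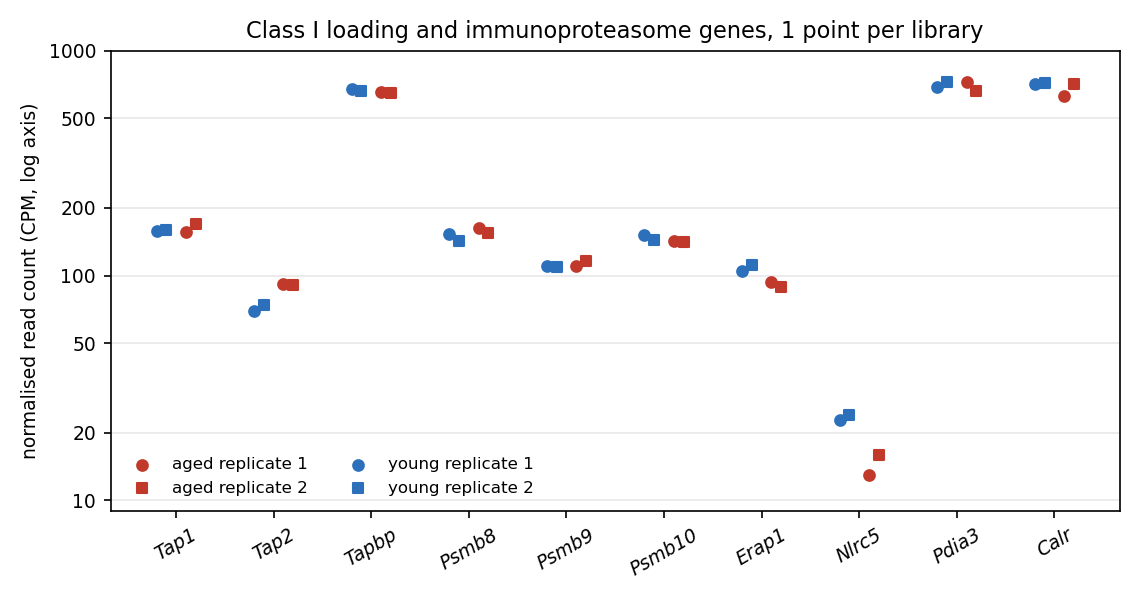
Normalised read counts (CPM, log axis) of the 10 genes, 1 point per library, with aged libraries in red and young ones in blue. Tap2 stood at 92.2 and 90.4 CPM at 18 months and 69.9 and 74.2 CPM at 3 months, Nlrc5 at 13.0 and 15.9 against 22.8 and 23.9 CPM, and Erap1 lay lower in both aged libraries than in either young one.

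Of the 10 genes, 4 sit side by side in the class II region of chromosome 17, in the order Psmb9, Tap1, Psmb8 and Tap2, within 34.3 kb (34181987 to 34216321, GRCm38). Psmb9 and Tap1 are read in opposite directions from a shared promoter, with 226 bases between their start sites in RefSeq, while 495 bases separate the GENCODE annotations of Tap1 and Psmb8 and 2072 those of Psmb8 and Tap2. Promoter windows from RefSeq (GRCm38.p6, 250 bases before to 50 after the start) matched 8 of the 10 genes. Tap2 and Nlrc5 had no entry. The windows are shown for the shared Tap1 and Psmb9 promoter (written on the Tap1 strand, of which 275 bases also lie in the Psmb9 window), for Psmb8 as the third gene of the block, and for Erap1. Capitals mark the motifs found, 5′ to 3′ on the gene's own strand, at chr17:34187306-34187605 (plus strand), chr17:34197945-34198244 (plus strand) and chr13:74639603-74639902 (plus strand).
Tap1: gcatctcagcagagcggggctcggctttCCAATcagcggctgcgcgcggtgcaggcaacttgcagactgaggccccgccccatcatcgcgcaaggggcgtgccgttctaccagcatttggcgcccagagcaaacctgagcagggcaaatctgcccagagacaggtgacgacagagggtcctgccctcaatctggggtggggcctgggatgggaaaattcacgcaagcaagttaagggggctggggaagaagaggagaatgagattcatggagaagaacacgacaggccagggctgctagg
Psmb8: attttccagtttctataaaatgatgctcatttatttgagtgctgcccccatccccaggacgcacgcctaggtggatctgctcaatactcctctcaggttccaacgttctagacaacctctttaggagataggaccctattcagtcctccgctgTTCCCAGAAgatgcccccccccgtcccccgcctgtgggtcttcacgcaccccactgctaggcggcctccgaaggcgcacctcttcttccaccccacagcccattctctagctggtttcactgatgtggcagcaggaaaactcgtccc
Erap1: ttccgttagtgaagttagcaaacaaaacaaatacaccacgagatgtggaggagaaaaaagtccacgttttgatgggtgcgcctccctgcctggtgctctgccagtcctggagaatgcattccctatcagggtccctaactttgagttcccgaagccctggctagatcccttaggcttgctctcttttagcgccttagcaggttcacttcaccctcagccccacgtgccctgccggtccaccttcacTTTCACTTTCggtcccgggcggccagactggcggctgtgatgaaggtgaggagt

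The motifs were searched on both strands, and no 2 matches in these genes' windows overlapped. Distances are counted from the RefSeq starts. The windows of Psmb8, Psmb9, Tapbp and Erap1 lie wholly inside the GENCODE annotations, which begin further upstream, at 34197721 for Psmb8 and 74639568 for Erap1. A CCAAT box, to which NF-Y binds, stood 222 bases before the Tap1 start. It is the same box as the one beginning 8 bases before the Psmb9 start. The motif was also found for Tapbp, Pdia3 and Calr. That makes 5 of 8 genes, with the shared box counted for both Tap1 and Psmb9, against 37.4% of 32851 promoter windows. The core of the interferon-stimulated response element, GAAANNGAAA, was found for Erap1 alone of the 8, beginning 4 bases before the start and running over it, and in 3.44% of all windows. The core of the gamma-activated site, TTCNNNGAA, was found for Psmb8 alone of the 8, beginning 97 bases before the start, and in 8.3% of all windows. The NF-kB consensus was found for Calr alone, against 8.46% of all windows. These are matches of letters in a short window and no measure of binding.

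The transporter genes Tap1 and Tap2 encode the chains of a single heterodimer, of which Tap2 passed the test and Tap1 did not. Tap2 (ENSMUSG00000024339.12, chromosome 17, 34203527 to 34216321, plus strand) had 92.2 and 90.4 CPM at 18 months and 69.9 and 74.2 CPM at 3 months, from 1478 to 2416 counts. Both aged libraries lay above both young ones. The log2 change was 0.34 ± 0.074 (95% interval 0.18 to 0.51; edgeR adjusted p = 0.0241). Tap2 lost the call without young replicate 1 (adjusted p = 0.226) or young replicate 2 (0.0567), with log2 changes of 0.30 and 0.38.

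Tap1 (ENSMUSG00000037321.17, chromosome 17, 34187553 to 34197225, plus strand) had 156 and 170 CPM at 18 months and 158 and 160 CPM at 3 months. The young libraries lay between the aged ones. Its log2 change was 0.036 ± 0.065 (95% interval -0.11 to 0.18; edgeR adjusted p = 0.796). Within each library, Tap2 had 0.589 and 0.533 counts per count of Tap1 at 18 months and 0.443 and 0.463 at 3 months. The log2 ratio was 0.31 higher in the aged libraries and the groups did not overlap, but the two-sided exact permutation p of 0.333 is the smallest that 2 against 2 libraries allow. By contrast, Psmb9, which shares the promoter of Tap1, kept 0.685 to 0.706 counts per count of Tap1 in all 4 libraries.

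Nlrc5 (ENSMUSG00000074151.13, chromosome 8, 94434356 to 94527272, plus strand), whose protein binds class I promoters through the SXY module with RFX factors and NF-Y, was the least abundant of the 10. It had 325 and 346 counts at 18 months and 788 and 477 at 3 months, which is 13.0 and 15.9 against 22.8 and 23.9 CPM. Both aged libraries lay below both young ones. The log2 change was -0.70 ± 0.13 (95% interval -0.99 to -0.41; edgeR adjusted p = 0.0129). Without young replicate 1, the deepest library, Nlrc5 did not pass (-0.73, adjusted p = 0.0645). It passed without each other library, with log2 changes between -0.85 and -0.55.

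The 3 inducible catalytic subunits did not pass the test. Psmb8 (LMP7, the chymotrypsin-like subunit; chromosome 17, 34197721 to 34201454) had 163 and 155 CPM at 18 months and 152 and 143 CPM at 3 months, with the groups just apart (0.11 ± 0.066, 95% interval -0.039 to 0.25, edgeR adjusted p = 0.388). Psmb9 (LMP2; chromosome 17, 34181987 to 34187764) had 111 and 117 against 110 and 110 CPM (0.046 ± 0.068, 95% interval -0.10 to 0.20, adjusted p = 0.741). Psmb10 (MECL-1, the trypsin-like subunit; chromosome 8, 105935735 to 105938444) had 142 and 142 against 151 and 144 CPM (-0.056 ± 0.063, 95% interval -0.20 to 0.084, adjusted p = 0.661). The groups were apart for Psmb9 and Psmb10 too, in opposite directions, by less than the range within one of the groups. None of the 3 intervals reached the log2 change of 0.34 seen for Tap2, whose own 95% interval (0.18 to 0.51) overlaps those of Psmb8 and Psmb9. Whether Tap2 changed more than these subunits was not tested.

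Each inducible subunit replaces a constitutive one, Psmb8 for Psmb5, Psmb9 for Psmb6 and Psmb10 for Psmb7. The ratio of Psmb8 to Psmb5 counts was 1.40 and 1.20 at 18 months and 1.18 and 1.09 at 3 months, and the groups were again just apart. Psmb9 to Psmb6 gave 0.799 and 0.841 against 0.828 and 0.766, and Psmb10 to Psmb7 gave 3.60 and 3.00 against 2.96 and 3.15. For both of these pairs the groups overlapped. Averaged over the 3 pairs, the log2 ratio was 0.60 ± 0.099 for the aged group and 0.49 ± 0.032 for the young one (SD, n = 2 per group), a difference of 0.11 with a two-sided exact permutation p of 0.333, the smallest possible here. With all 14 genes of the constitutive 20S core as the denominator the difference was also 0.11. From summed counts of the 3 pairs the log2 ratios were 0.50 and 0.39 at 18 months and 0.40 and 0.31 at 3 months. These groups overlapped (two-sided exact permutation p = 0.667). A ratio does not tell a change of its numerator from one of its denominator. The inducible subunits gave log2 changes of 0.11 for Psmb8, 0.046 for Psmb9 and -0.056 for Psmb10. The constitutive partners did not pass either: Psmb5 gave -0.083 ± 0.071, Psmb6 0.0048 ± 0.066 and Psmb7 -0.16 ± 0.11 on the log2 scale.

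**Figure D2:**
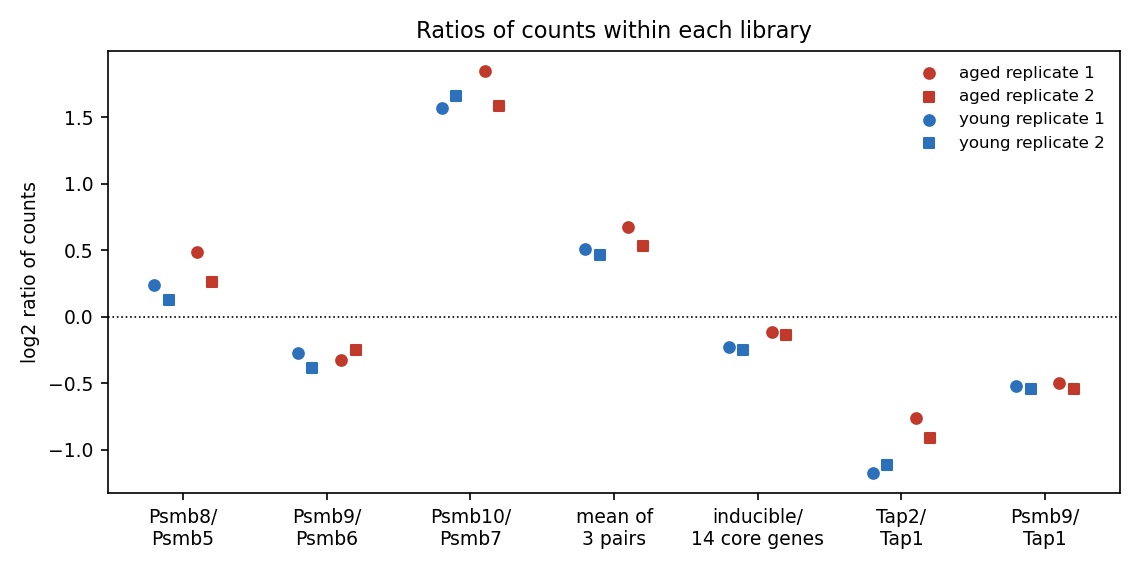
Log2 ratios of counts within each library, 1 point per library (aged red, young blue), for the 3 subunit pairs, their mean, the inducible subunits against 14 core genes, Tap2 against Tap1 and Psmb9 against Tap1. The Tap2 to Tap1 ratio is higher in both aged libraries by 0.31 on average, while the Psmb9 to Tap1 ratio differs by 0.011.

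The endoplasmic loading factors were abundant and did not pass the test. Tapbp, which encodes tapasin, the bridge between TAP and the heavy chain (chromosome 17, 33915899 to 33929292), had 653 and 651 CPM at 18 months and 675 and 659 CPM at 3 months (-0.032 ± 0.051, 95% interval -0.15 to 0.081, edgeR adjusted p = 0.767). Pdia3, which encodes the disulfide isomerase ERp57 (chromosome 2, 121413775 to 121438687), had 730 and 663 against 687 and 723 CPM (-0.016 ± 0.061, 95% interval -0.15 to 0.12, adjusted p = 0.912). Calr, the gene of the lectin chaperone calreticulin (chromosome 8, 84841850 to 84846934), had 630 and 713 against 709 and 719 CPM (-0.089 ± 0.064, 95% interval -0.23 to 0.054, adjusted p = 0.472). Aged replicate 1 was the lowest for Calr and the highest for Pdia3, and for both genes the aged libraries differed more between themselves than the group means did.

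Erap1 (ENSMUSG00000021583.7, chromosome 13, 74639568 to 74693201, plus strand), the aminopeptidase that trims peptides to class I length, had 93.4 and 89.0 CPM at 18 months and 105 and 111 CPM at 3 months. Both aged libraries lay below both young ones. The unadjusted p was 0.0066 and the 95% interval of the log2 change ran from -0.40 to -0.084, but the edgeR adjusted p over all genes was 0.0775. Erap1 passed in 2 of 15 alternatives, without a low-count filter (adjusted p = 0.0384) and with the replicate number as a block (0.00817).

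**Figure D3:**
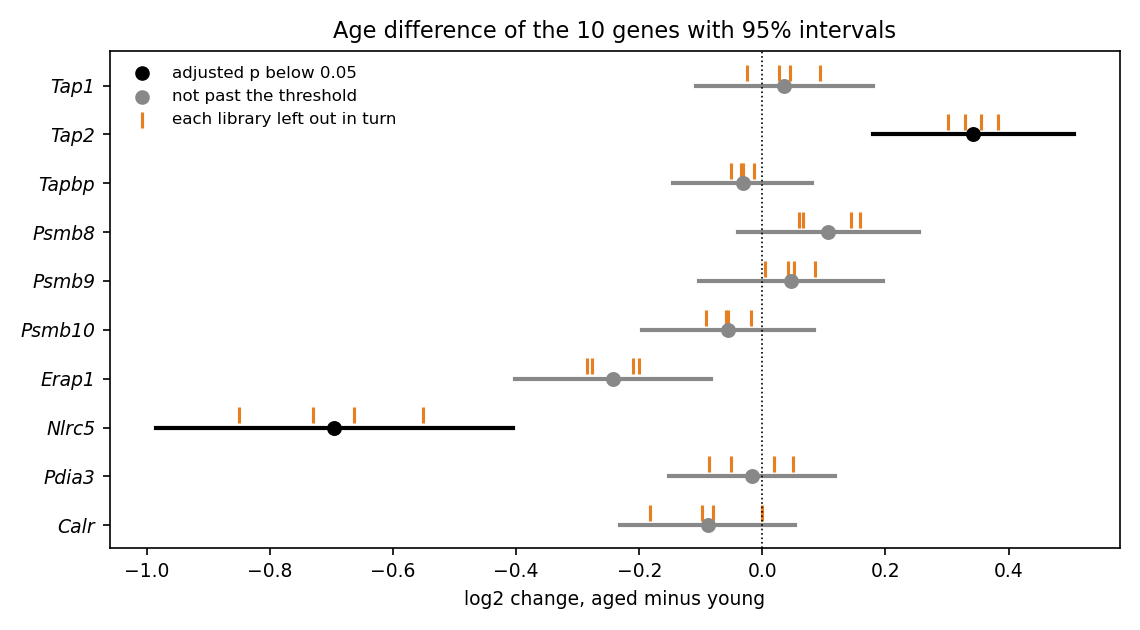
Log2 change of each gene (aged minus young) with its 95% interval, in black where the adjusted p was below 0.05, and orange ticks for the value with each library left out in turn. The ticks of Tap2 run from 0.30 to 0.38 and those of Nlrc5 from -0.85 to -0.55, while those of Tap1 and Pdia3 lie on both sides of 0.

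Per kilobase of the principal transcript in GENCODE M21, the 10 genes kept the same order of levels in all 4 libraries. Calr led with 288 to 329 CPM per kb, followed by Pdia3 (239 to 263), Tapbp (225 to 233), Psmb10 (108 to 115), Psmb8 (87.6 to 100.4), Psmb9 (81.2 to 86.3), Tap1 (53.0 to 57.5), Tap2 (20.3 to 26.8), Erap1 (15.8 to 19.7) and Nlrc5 (1.71 to 3.16). No neighbours in this order overlapped over the 4 libraries, although Psmb8 and Psmb9, and Tap2 and Erap1 in the young libraries, came close. On the same scale the constitutive subunits stood at 129 to 146 CPM per kb for Psmb5, 167 to 179 for Psmb6 and 34.1 to 44.0 for Psmb7. These levels and their order were computed for that length alone and depend on it. All exons of a gene together span 2880 bases for Calr, 3139 for Pdia3 and 1872 for Psmb6. Their principal transcripts have 2184, 2770 and 798 bases. The 10 genes summed to 2784 and 2806 CPM at 18 months and 2840 and 2867 CPM at 3 months.

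No source used here gives the strand setting of the counting, so reads of genes that overlap on opposite strands may be shared. Exons of Erap1 overlap those of Cast, the calpastatin gene, over 11.5% of their length, and Cast (from 3484 to 5659 counts) gave a log2 change of 0.10 (edgeR adjusted p = 0.39). For Tap2 the overlapping transcripts Gm15821 and Gm20496, over 14.1% and 4.36% of its exons, had at most 4 counts in any library. Exons of Tapbp overlap those of Gm19412 (0 counts in all libraries) over 24.9%, and exons of Psmb8 those of Gm20496 over 14.7%. Low counts of such a transcript do not show how reads in the overlap were counted. Exons of Nlrc5 overlap those of 9330175E14Rik over 0.918% of their length, and those of Tap1 and Psmb9 overlap each other over 212 bases.

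Genes on either side of the chromosome 17 block belong mostly to the class II pathway. Within 100 kb of the block, a distance chosen after values were seen, 5 of 9 other tested genes rose and 0 fell, with a median log2 change of 0.47, against 1 of the 4 block genes and a median of 0.077. Among all tested genes 2.87% rose and 2.89% fell, with a median of -0.0044. H2-DMb1, which encodes a chain of the class II peptide exchanger (0.89 ± 0.066, edgeR adjusted p = 2.33e-05), lies on the Psmb9 side, and H2-Ab1, a class II beta chain (1.53 ± 0.057), lies beyond Tap2. H2-Ob, the neighbour of Tap2 on that side, had 3.06 to 5.94 CPM and did not pass (0.43 ± 0.27, adjusted p = 0.395). H2 genes are similar in sequence, and their split of reads is uncertain.

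**Figure D4:**
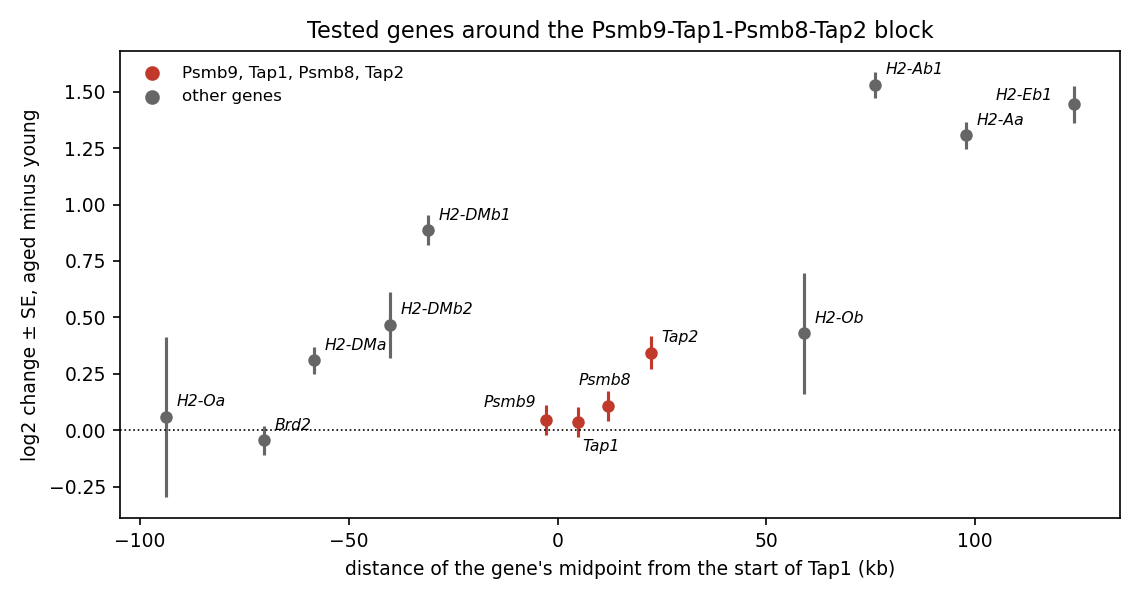
Log2 change (aged minus young) with standard error against the distance of each tested gene's midpoint from the start of Tap1, in kb, with Psmb9, Tap1, Psmb8 and Tap2 in red and other genes in grey. Psmb9, Tap1 and Psmb8 lie between 0.036 and 0.11, Tap2 at 0.34, and H2-Ab1, H2-Aa and H2-Eb1 at 1.31 to 1.53.

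Of the 10 tested genes of the list of class I heavy chains and B2m, 3 rose and 0 fell, with a median of 0.19. Log2 changes in the list ran from -0.22 to 0.94. H2-K1, the other classical heavy chain gene beside H2-D1, was among the 7 that did not pass. Beside this list and each list below stand the shares of all tested genes, 2.87% higher and 2.89% lower, and their median of -0.0044. H2-D1, a classical heavy chain gene, had 4308 and 4445 CPM at 18 months and 3261 and 3547 CPM at 3 months (0.36 ± 0.054, edgeR adjusted p = 0.00414), and the non-classical H2-Q6 (0.94 ± 0.15) and H2-Q7 (0.68 ± 0.12) rose as well. H2-Q6 and H2-Q7 did not pass without young replicate 1 (0.0603 and 0.0541). B2m, the light chain gene, had 2350 and 2380 against 2572 and 2405 CPM and did not pass (-0.074 ± 0.052, adjusted p = 0.458).

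Among 15 other loading and trimming factors 1 rose and 1 fell, with a median of -0.11. Ide, the insulin-degrading enzyme, a cytosolic peptidase, rose (0.29 ± 0.074, edgeR adjusted p = 0.0463). Uggt1, the glucosyltransferase that returns misfolded glycoproteins to the calreticulin cycle, fell from 317 and 319 to 268 and 268 CPM (-0.25 ± 0.054, adjusted p = 0.0259). Canx, the membrane-bound relative of calreticulin, had 519 and 482 CPM at 18 months and 578 and 569 CPM at 3 months and missed the threshold (-0.20 ± 0.056, adjusted p = 0.07), which it passed in 4 of 15 alternatives (0.00485 to 0.0496 in those). Leaving out aged replicate 1 or either young library ended the call of Ide (adjusted p = 0.0796 to 0.334), and leaving out aged replicate 2 or either young library that of Uggt1 (0.0535 to 0.169).

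None of 14 genes of the constitutive 20S core passed with edgeR, DESeq2 or limma-voom. Psmb4 alone of the 14 had an unadjusted p under 0.05 (-0.24 ± 0.10, edgeR adjusted p = 0.224), and the median was -0.094. Of the 14, 3 had a positive log2 change. The libraries of the groups did not overlap for 8 genes lower and 0 higher in aged monocytes, against 25.7% and 25.9% of all tested genes. Of 10 proteasome caps and assembly factors, Psme4, which encodes the PA200 cap, fell (-0.30 ± 0.077, adjusted p = 0.047), with a median of -0.033. Psme4 did not pass without any of the 4 libraries in turn (0.0587 to 0.258), nor under upper-quartile (0.0553) or library-size scaling (0.0514). The interferon-inducible PA28 cap genes Psme1 (-0.049 ± 0.062, adjusted p = 0.697) and Psme2 (-0.063 ± 0.06, adjusted p = 0.596) did not pass.

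Of 17 folding factors of the endoplasmic reticulum 1 rose and 1 fell, with a median of 0.066. Hspa5, the gene of the chaperone BiP, rose from 601 and 636 to 772 and 777 CPM (0.33 ± 0.054, edgeR adjusted p = 0.00663), and its exchange factor gene Hyou1 fell (-0.34 ± 0.085, adjusted p = 0.0431). Hspa5 was lost without young replicate 1 (0.0751), and Hyou1 when aged replicate 1 or either young library was left out (0.0915 to 0.283), as also under upper-quartile (0.0509) or library-size scaling (0.0504).

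Among 26 interferon pathway and class I promoter factors 3 rose and 0 fell, with a median of 0.073. Ifngr1, the ligand-binding chain of the interferon-gamma receptor, rose from 594 and 629 to 784 and 748 CPM (0.33 ± 0.056, edgeR adjusted p = 0.00805), with Stat3 (0.26 ± 0.057) and the feedback inhibitor gene Socs3 (0.66 ± 0.16). None of these 3 passed without young replicate 1 (0.0827, 0.262 and 0.0991), and Socs3 passed neither without aged replicate 2 (0.14) nor without young replicate 2 (0.109). Irf1, the factor that induces many class I genes, had 82.9 and 77.2 CPM at 18 months and 98.7 and 96.1 CPM at 3 months and missed the threshold narrowly (-0.28 ± 0.073, adjusted p = 0.0506), which it passed in 7 of 15 alternatives (adjusted p = 0.00205 to 0.0475 in those).

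Of 16 tested interferon-gamma targets outside the class I pathway 0 passed with edgeR or DESeq2 and 1 with limma-voom, and 6 were under an unadjusted 0.05. The list's median was -0.095, and single values ran from -2.09 to 1.58. The smallest p belonged to Cd274, the gene of the checkpoint ligand PD-L1, at 9.73 and 7.18 CPM at 18 months and 5.18 and 5.07 CPM at 3 months (0.72 ± 0.20, edgeR adjusted p = 0.064).

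**Figure D5:**
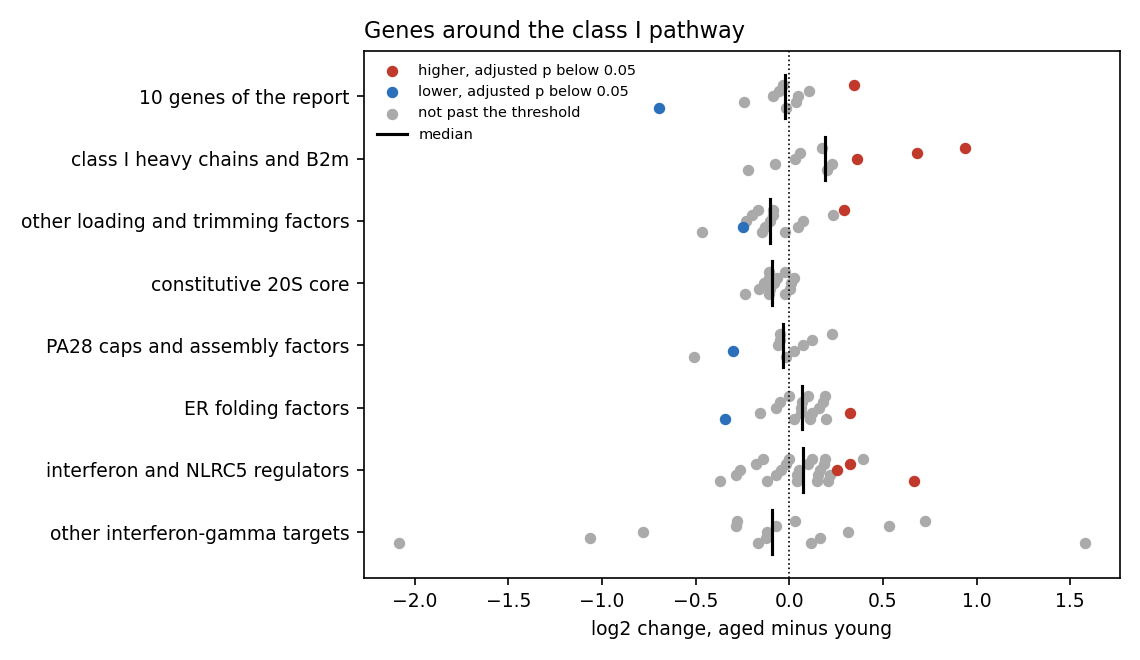
Log2 change (aged minus young) of each tested gene in the 10 genes of the report and 7 further lists, in red or blue where the adjusted p was below 0.05, with black bars for the medians. The vertical scatter within a list is for display. Red points are most numerous among class I heavy chains and interferon regulators, with 3 each, and the constitutive 20S core holds none.

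Monocyte markers were high in all libraries, led by the lysozyme gene Lyz2 at 32747 to 35199 CPM, and library totals ran from 20159129 to 34278754 counts. Of 10 monocyte markers 4 rose and 1, Ly6c2, fell, where 2.87% of all tested genes rose and 2.89% fell. The same shares apply to each marker list below. Markers of other cells and of monocyte subsets moved with age beside Tap2 and Nlrc5. Of 10 markers of non-classical monocytes 7 rose and 0 fell, and their summed level was 1895 and 1751 CPM at 18 months and 1379 and 1303 CPM at 3 months. The most abundant of these, Itgal, did not pass (0.089 ± 0.053, edgeR adjusted p = 0.37). Of 9 tested B cell markers 4 rose and 0 fell, with sums of 52.8 and 54.3 against 34.0 and 31.0 CPM, and the most abundant was Cd79b (log2 change 0.51 ± 0.11), which did not pass without aged replicate 2 or either young library (edgeR adjusted p = 0.0755 to 0.154). Of 12 dendritic cell markers 3 rose (Spib, Flt3 and Itgax) and 0 fell, with sums of 347 and 357 against 306 and 307 CPM. The most abundant of them, Cd209a, had 138 and 140 against 125 and 131 CPM and did not pass (0.12 ± 0.064, edgeR adjusted p = 0.327). Of 10 macrophage markers 3 rose (C1qb, Axl and C1qc) and 0 fell, 5 had a positive log2 change, and their sums of 553 and 535 against 531 and 549 CPM overlapped. The most abundant of them, Slc40a1, had 192 and 171 CPM at 18 months and 210 and 236 CPM at 3 months and missed the threshold (-0.30 ± 0.077, edgeR adjusted p = 0.0501), which it passed in 10 of 15 alternatives. Of 11 tested T and NK cell markers 0 passed with edgeR, as with DESeq2 and limma-voom, and 2 had an unadjusted p under 0.05. In this list 10 log2 changes were positive, with a median of 0.29, while the sums were 49.5 and 47.9 against 50.9 and 55.7 CPM. The most abundant, Nkg7, was among the 2 and had the lowest log2 change of the list (-0.33 ± 0.11, edgeR adjusted p = 0.0988). Of 10 neutrophil markers 2 rose and 3 fell (29398 and 29840 against 30234 and 29022 CPM), while the most abundant, S100a9, did not pass (-0.14 ± 0.05, edgeR adjusted p = 0.13). Of 8 erythroid markers 1 rose and 0 fell (382 and 393 against 386 and 347 CPM), and 6 had a positive log2 change, with a median of 0.23. The most abundant, Hbb-bs, had the lowest log2 change of these and did not pass (-0.064 ± 0.07, edgeR adjusted p = 0.652). No marker of any list was at 0 in all 4 libraries. The part of these cells in the changes of Tap2 and Nlrc5 was not tested.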

How the data were processed

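Messenger RNA had been selected with oligo-dT beads and made into strand-specific libraries by dUTP marking, per the labels' protocols. Each deposited table holds whole-number read counts of 1 library by gene symbol, without normalization by the authors. Tools listed in the submitters' processing notes, without their roles, are HTSeq, DESeq2, cutadapt and STAR 2.5.3, with mm10 as the build; no source used here gives the annotation or the strand setting. Replicates differed by more than sampling noise (chi-square per degree of freedom 10.2 for aged and 13.5 for young).

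Genes were kept by filterByExpr (minimum count 10, minimum total 15), scaled with TMM factors and tested for age, two-sided, with edgeR 4.0.16 (R 4.3.3), adjusted by Benjamini-Hochberg over 12035 genes. Standard errors are the log2 change divided by the square root of F. CPM use TMM-scaled library sizes. The procedure was tested on simulated data. Positions and lengths come from GENCODE M21 (GRCm38), and promoters from RefSeq. The 10 genes and the lists were chosen with earlier results of these data known. Named are the 10 genes, Psmb5, Psmb6, Psmb7, Irf1, B2m, Psme1, Psme2 and Canx. From each list come up to 3 genes per direction past the threshold with the smallest p, or else the member with the smallest p. The most abundant marker of a cell type is named as well. H2-K1, the neighbours on chromosome 17 and the genes with overlapping exons fall outside this rule and were chosen after their values were seen. Nrdc of the trimming list was not found among the symbols, and 1 gene of the interferon list is not reported here. As alternatives, scaling was changed to RLE, upper quartile or library size, the 20 most abundant genes were left out of the library sizes, and 3 further filters, DESeq2 1.42.0, limma-voom (limma 3.58.1), robust edgeR, a replicate block and the removal of each library were tried.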

Additional observations from a re-analysis of the deposited data

How the results depend on the processing

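The counts of 1 higher and 1 lower of the 10 genes were the same under all scalings, with 2 of 3 other filters, DESeq2, limma-voom and robust edgeR. Without a low-count filter and with the replicate number as a block, 2 were lower (Nlrc5 and Erap1). With each library left out in turn, higher calls ranged from 0 to 1 and lower calls from 0 to 1. Over all genes, higher calls ranged from 116 to 452 and lower calls from 81 to 588 with a library left out, both lowest without young replicate 1; no low-count filter gave 606 higher and 793 lower, and the block 801 and 1016, against 346 and 348. Same-numbered libraries deviated together with a correlation of 0.0937 across genes, and no label says whether they were handled as pairs. The block added calls in every other pathway list too. Its totals were 4 higher among class I heavy chains and B2m, and 4 lower among loading and trimming factors. The 20S core had 1 lower (Psmb4), and caps and assembly factors 2 lower. Folding factors had 3 higher and 2 lower, regulators 6 higher and 3 lower, and interferon-gamma targets 2 higher and 3 lower. Irf1 (edgeR adjusted p = 0.00205) and Canx (0.00485) passed under the block. Irf1 passed in 7 of 15 alternatives and Canx in 4. The difference (aged minus young) in the mean log2 ratio of inducible to constitutive subunits, 0.11, ranged from 0.043 to 0.18 with a library left out. It was 0.090 from summed counts, with overlapping groups. With 2 against 2 libraries the block leaves this difference unchanged by arithmetic, so it is no check of it. Signs changed for uncalled genes: with a library left out, Tap1 ranged from -0.026 (without aged replicate 2) to 0.094, Pdia3 from -0.087 to 0.049 (positive, at 0.049 and 0.019, without aged replicate 2 or young replicate 2), and, each with its sign changed without young replicate 1, Psmb6 from -0.046 to 0.055, Lyz2 from -0.016 to 0.085 and Hbb-bs from -0.15 to 0.025. Scaling moved the median of all genes by little (-0.0046 to 0.0083). Nlrc5, with 325 to 788 counts, had the fewest counts and the largest standard error (0.13) of the 10 genes. The cause of these differences was not tested.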
